A study of Mus musculus with 20 samples.

Results

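The genes described here are 38 genes of fatty acid oxidation and ketogenesis, taken by symbol from a deposited count table of 46095 genes. They were chosen for their place in the pathway, with earlier results of these data known. RNA was sequenced from the livers of 20 mice to examine the part of Pck1, the cytosolic phosphoenolpyruvate carboxykinase of gluconeogenesis, in diet-induced steatohepatitis. The 4 groups of 5 mice were wild type (WT) on chow, WT on a diet given to bring on non-alcoholic steatohepatitis (NASH), and mice with a liver-specific knockout of Pck1 (KO) on either diet. All mice were fed their diet for 24 weeks and were 31 to 33 weeks old. The driver of the knockout, the composition of the diet and the sex of the mice were not given in the sources used here, and neither is the genotype of the WT mice at a conditional allele. The labels describe separate mice, and the p-values measure the spread between these 20 livers.

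Fatty acids enter mitochondria after activation to acyl-CoA and transfer to carnitine, and are then shortened by repeated cycles of dehydrogenation, hydration, a further dehydrogenation and thiolysis. Peroxisomes carry out a parallel oxidation of very long and branched chains, and thioesterases release free fatty acids from acyl-CoA. In liver much of the acetyl-CoA from this oxidation is turned into ketone bodies. Many of these genes are known targets of the nuclear receptor PPAR alpha, which binds fatty acids and heterodimerises with RXR on direct repeats of a hexamer. Of the ketogenic enzymes only Bdh1, which interconverts acetoacetate and 3-hydroxybutyrate, is among the 38 genes, so that the set is mainly one of oxidation.

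Library totals were 9958935 to 20601955 counts, and levels are given as CPM, counts brought to a common library total with edgeR's trimmed mean of M values (TMM). Pck1 averaged 3573 ± 1139 CPM in WT chow and 2290 ± 511 in WT NASH, and in KO livers 626 ± 175 on chow and 445 ± 112 on the NASH diet (SD, n = 5 each), lower in KO on both diets (edgeR adjusted p = 0.00011 and 6.13e-05). The 6 hepatocyte markers, Alb among them, summed to between 44560 and 116654 CPM in every library, as the liver label says. By Y-linked genes and Xist, all 5 WT chow mice were male and 4 of 5 WT NASH mice female (replicate 4 was male), while KO chow held 3 males (females were replicates 3 and 5) and KO NASH 4 males (replicate 2 was female). In 6 libraries, WT chow 3, 4 and 5, WT NASH 4 and KO chow 4 and 5, longer genes read low: the slope of relative log2 expression on log2 exonic length was -0.34 to -0.25, against 0.01 to 0.19 in the other 14. Sex thus differed most between WT chow and WT NASH, the low-slope libraries numbered 3, 1, 2 and 0 in WT chow, WT NASH, KO chow and KO NASH, and results are also given with sex as a term and without those 6 libraries. In whole liver, fewer cells of a type and less RNA per cell cannot be told apart.

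All 38 genes passed the filter on low counts, and the test ran over 14440 genes. A gene is said to rise or fall where edgeR's quasi-likelihood test gave a Benjamini-Hochberg adjusted p under 0.05 over all genes, and fold changes are log2 differences with their standard error (SE). On the NASH diet in WT livers 12 of the 38 fell and 1 rose (34.2%, against 5.93% of all genes tested, 3.24% lower and 2.69% higher), and the median log2 fold change was -0.72, against 0.01 over all genes. In KO livers on chow 5 rose and none fell against WT (13.2%, against 5.53% of all genes, 3.03% higher and 2.49% lower; median 0.62, all genes 0.00). On the NASH diet 10 were higher in KO than in WT and none lower (26.3%, against 9.65% of all genes, 4.9% higher and 4.74% lower; median 0.76, all genes 0.00). Between the diets in KO livers 2 fell and none rose (5.26%, against 3.29% of all genes, 1.52% lower and 1.77% higher; median -0.54, all genes -0.02). These comparisons share groups, so a high or low group enters more than 1 of them. The genes were chosen with earlier results known, so these shares describe the set and do not test it.

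**Figure D1:**
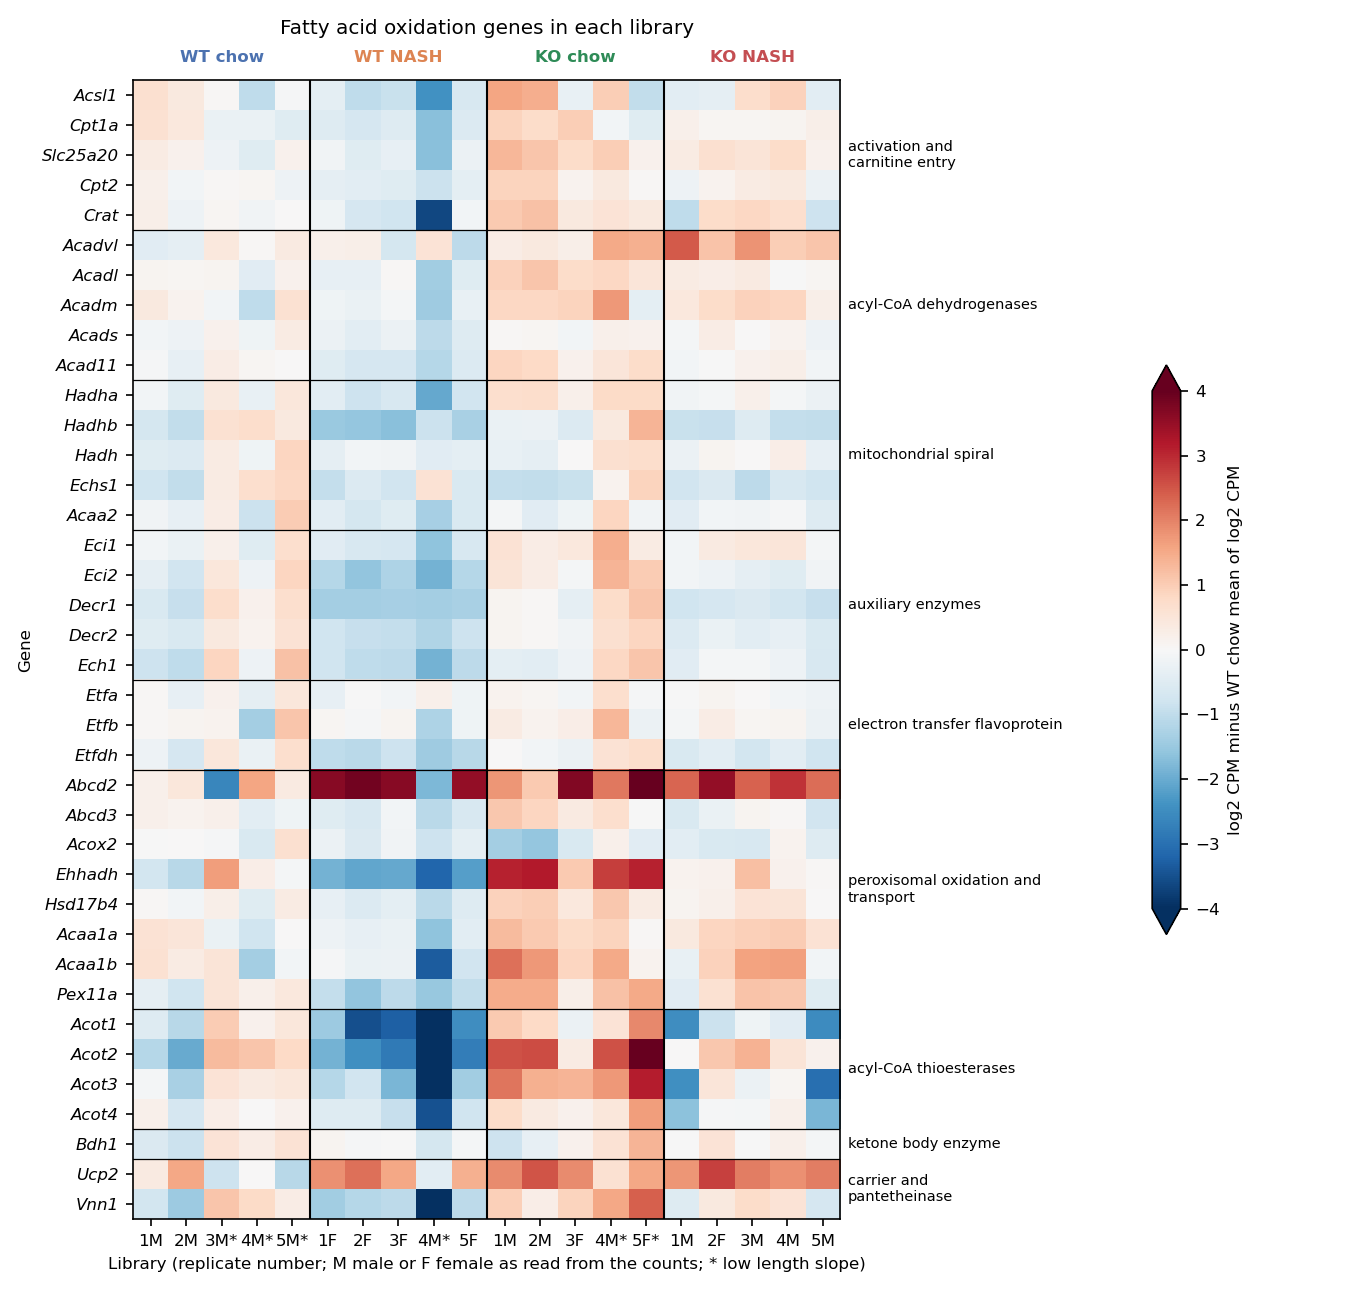
Log2 CPM of each of the 38 genes (rows, by role) in each of the 20 libraries (columns, by group), minus the mean log2 CPM of the gene in WT chow; letters give the sex as read and stars the 6 libraries of low length slope. Colours end at -4 and 4, and values beyond take the end colour. Within WT NASH, replicate 4 is the lowest library for 33 of the 38 genes, and KO chow holds the highest values of Ehhadh and the thioesterases. How often that replicate is the lowest over all genes was not counted.

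The counts depended on single libraries, and each is given beside the share of all tested genes called in the same fit. For the WT diet comparison, 6 of the 38 genes were called without WT chow 3 (2.93% of all genes), 7 without WT chow 5 (3.13%), 7 without WT NASH 2 (2.82%), 8 without WT NASH 3 (3.6%) and 8 without WT NASH 5 (3.04%). For KO against WT on chow, 10 were called without WT NASH 4 (7.53% of all genes), and fewer than 4 in most other fits. A single gene (2.63% of the 38) was called without WT chow 1 (4.69% of all genes), WT chow 3 (2.9%), KO chow 1 (2.56%) or KO chow 2 (2.37%), so that in these 4 fits the share was below or near that of all genes. Without WT chow 2 or WT chow 4 it was 2 genes (5.26%, against 5.04% and 3.33%), and without WT chow 5, WT NASH 1, 2, 3 or 5, or KO NASH 2, 3 or 4 it was 3 (7.89%, against 3.73% to 5.03%). For KO against WT on the NASH diet the number stayed between 7 and 13, and the share of all genes between 4.89% and 11.8%. For the diet in KO livers it was 10 without KO chow 3 (5.34% of all genes), 8 without WT NASH 4 (5.4%), and 1 without WT NASH 2, 3 or 5, KO chow 1 or 4 or any 1 of the KO NASH libraries (1.01% to 2.45%).

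With sex in the model 4 of the 38 genes were called for the WT diet (10.5%, against 1.11% of all genes), 2 for KO on chow (5.26%, against 5.84%), 6 for KO on the NASH diet (15.8%, against 4.33%) and 3 for the diet in KO (7.89%, against 3.98%). The share for KO on chow was then below that of all genes. Without the 6 libraries of low length slope the numbers were 5 (13.2%, against 4.88% of all genes), 12 (31.6%, against 5.33%), 21 (55.3%, against 20.3%) and 12 (31.6%, against 7.69%) in the same order, and the median in the WT diet comparison was -0.42. For KO on the NASH diet the share of all genes called thus rose along with that of the 38. Of the 10 genes higher in KO on the NASH diet, all 10 were called again without those libraries, and 5 with sex in the model. Of the 13 genes called for the WT diet, 3 were called again without those libraries. That fit leaves out WT NASH 4, the lone male of its group. It thus holds WT NASH females alone, WT chow males alone, and 4 males and 1 female of KO NASH. Sex and diet cannot be told apart there in WT, and sex differs between the genotypes on the NASH diet.

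**Figure D2:**
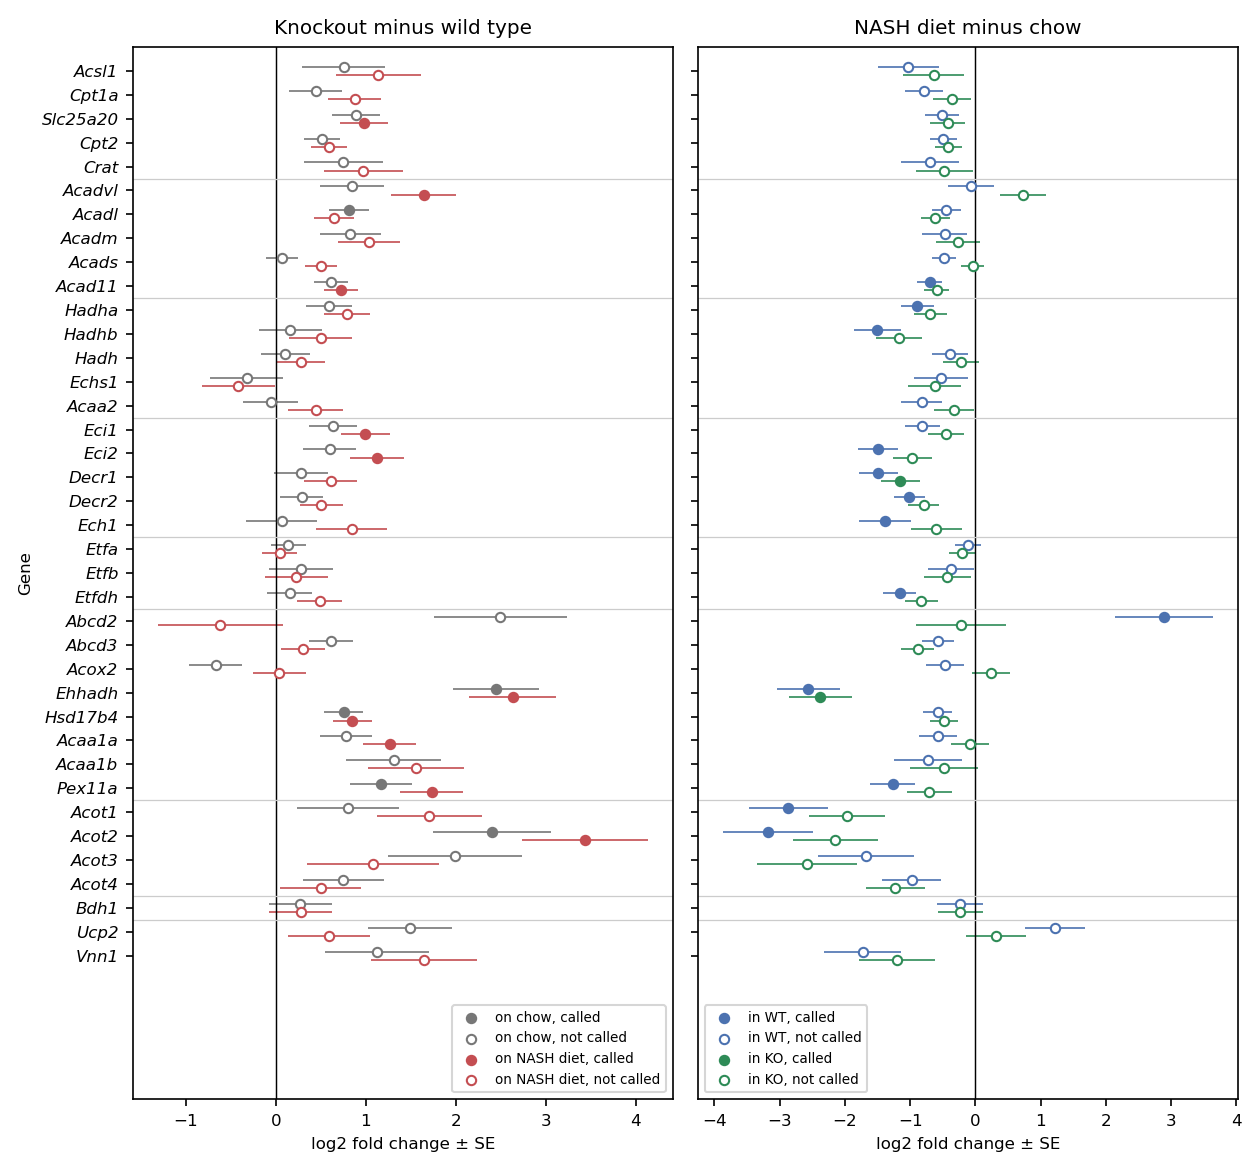
Log2 fold change (horizontal) of each of the 38 genes (rows, by role) between genotypes on each diet (left) and between diets in each genotype (right), with bars of 1 SE and filled points for an edgeR adjusted p under 0.05. For KO against WT on the NASH diet 36 of the 38 points lie above 0, and for the diet in WT livers 36 lie below 0.

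No gene of the 38 was called for the interaction, which sets the genotype difference under the NASH diet against that under chow, where 0.139% of all genes were called. Abcd2 alone had an unadjusted p under 0.05, as did 8.25% of all genes (log2 difference of -3.11 ± 1.01 SE, adjusted p = 0.28), and DESeq2 called none. Without WT NASH 4 edgeR called Abcd2 (-3.42, adjusted p = 0.044). Leaving out that library, the lone male of its group, leaves WT NASH all female. The KO effect was thus not shown to differ between the diets for any of the 38 genes when all 20 libraries were fitted.

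Activation and carnitine entry hold Acsl1, which makes acyl-CoA, Cpt1a, the rate-limiting carnitine acyltransferase of the outer membrane, Slc25a20, the carnitine-acylcarnitine carrier, Cpt2, the inner acyltransferase, and Crat, the carnitine acetyltransferase. Slc25a20 rose in KO livers on the NASH diet, and the other 4 were not called in any comparison. Slc25a20 stood at 192, 172, 132, 109 and 169 CPM in WT chow and at 137, 108, 119.6, 47.5 and 129.5 in WT NASH, and at 385, 329, 250.2, 300.1 and 172 in KO chow and at 193, 236, 216, 252 and 172 in KO NASH. Every KO NASH library was above every WT NASH library, whereas on chow KO replicate 5 lay among the WT values. The log2 fold change on the NASH diet was 0.98 ± 0.26 (adjusted p = 0.0248) and on chow 0.89 ± 0.26 (adjusted p = 0.0512). A sex term in the model took away the NASH diet call (1.04, adjusted p = 0.071), as did leaving out WT NASH 2 or KO NASH 4 (adjusted p up to 0.0525).

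For Cpt1a all 5 WT NASH libraries, at 245 to 552 CPM, lay below all 5 WT chow libraries, at 556 to 1192, and below the KO NASH libraries, at 828 to 925. Neither difference passed (log2 -0.79 ± 0.30, adjusted p = 0.117, and 0.88 ± 0.30, adjusted p = 0.0644). Cpt2 had the same order, with 101 to 146 CPM in WT NASH, 159.5 to 212 in WT chow and 156 to 243 in KO NASH (adjusted p = 0.16 and 0.0701). Acsl1 and Crat varied widely within groups, with Crat at 7.36 CPM in WT NASH 4 and 52.2 to 84.8 in the other 4.

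The promoters were searched for the direct repeat bound by PPAR alpha with RXR, AGGTCA and again AGGTCA with any 1 base (N) between them, on both strands with up to 2 mismatches in the 12 fixed bases. The windows were 300 bases, 250 before to 50 after each RefSeq start on build GRCm38.p6, and 32 of the 38 genes had an entry. A match occurred in 5 of the 32 genes (15.6%), against 1190 of 27025 genes in the whole table (4.4%). In the list of regulators and other PPAR alpha targets 6 of 15 genes held a match (40.0%), and in that of other pathway genes 2 of 37 (5.41%). The 5 sites are shown because they are the only matches among these genes. Capitals mark bases that match the repeat:
Slc25a20: AGGTgAAAGGTCg
Acot4: cGGcCAAAGGTCA
Acox2: AGGaCAGAGGTgA
Echs1: AGGTCACgGGTCc
Etfa: AGGgCAAAGGTaA
The Slc25a20 site begins 6 bases after the start (chr9:108662142-108662154, plus strand), and that of Acot4 13 bases before it (chr12:84038366-84038378, read on the minus strand). Of these 5 genes Slc25a20 alone was called in any comparison. The Slc25a20 window (chr9:108661886-108662185, plus strand, the site in capitals) read:
Slc25a20: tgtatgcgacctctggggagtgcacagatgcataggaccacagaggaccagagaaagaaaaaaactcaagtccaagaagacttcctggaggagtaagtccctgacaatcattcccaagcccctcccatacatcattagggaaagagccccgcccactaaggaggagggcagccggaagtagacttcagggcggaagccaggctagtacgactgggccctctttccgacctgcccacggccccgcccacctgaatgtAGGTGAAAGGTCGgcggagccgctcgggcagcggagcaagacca
No match lay in the windows of Ehhadh, Acot2 or Pex11a, the genes with the highest fold changes among those called in both KO comparisons. The Ehhadh window (chr16:21787785-21788084, minus strand, no part in capitals) is given for comparison:
Ehhadh: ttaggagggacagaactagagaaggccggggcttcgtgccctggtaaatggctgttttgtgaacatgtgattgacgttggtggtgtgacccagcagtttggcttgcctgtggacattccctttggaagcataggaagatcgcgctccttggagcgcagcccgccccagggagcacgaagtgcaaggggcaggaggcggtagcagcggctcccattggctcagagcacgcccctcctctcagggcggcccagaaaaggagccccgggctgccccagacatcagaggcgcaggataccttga
A match describes letters in a window and says nothing of binding, and its absence says only that these letters are not there.

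The acyl-CoA dehydrogenases start each cycle, Acadvl on very long, Acadl on long, Acadm on medium and Acads on short chains, and Acad11 is a further family member. Acadl rose in KO livers on chow, Acadvl and Acad11 rose in KO livers on the NASH diet, and Acad11 fell with the NASH diet in WT livers. Acadl stood at 274, 266, 273, 185 and 286 CPM in WT chow and 479, 551, 421, 453 and 357 in KO chow. The groups did not overlap (log2 0.82 ± 0.22, adjusted p = 0.0351), and the call was lost with sex in the model (0.77, adjusted p = 0.0572) and held in 14 of the 20 fits without 1 library (adjusted p up to 0.101). In WT NASH and KO NASH Acadl lay at 96.8 to 259.7 and 253 to 328 CPM (log2 0.64 ± 0.22, adjusted p = 0.0669).

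Acad11 stood at 632, 522, 801, 700.2 and 668 CPM in WT chow and at 471, 412, 410.0, 297 and 453 in WT NASH, and at 1187, 1145, 743, 925 and 1091 in KO chow and at 612, 647, 739.7, 768 and 609 in KO NASH. All WT NASH libraries were below those of WT chow and of KO NASH. The log2 fold change was -0.70 ± 0.19 for the diet in WT livers (adjusted p = 0.0337) and 0.72 ± 0.19 for KO on the NASH diet (adjusted p = 0.0215). Acad11 passed in neither with sex in the model (adjusted p = 0.198 and 0.0701). The diet call was also lost without the low-slope libraries (-0.39, adjusted p = 0.267) and held in 14 of the 20 fits without 1 library, and the KO call was lost without WT NASH 4 or KO NASH 3.

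Acadvl, the very long chain enzyme, read at only 9.42, 10.2, 17.3, 13.4 and 16.5 CPM in WT chow and at 15.0, 15.3, 8.05, 19.1 and 6.33 in WT NASH, and at 15.8, 17.0, 15.1, 36.8 and 35.0 in KO chow and at 71.6, 28.6, 44.7, 25.5 and 28.0 in KO NASH. Each KO NASH library exceeded each WT NASH library (log2 1.64 ± 0.36, adjusted p = 0.00822). The call held in all 20 fits without 1 library (adjusted p up to 0.0323). It was kept in each other alternative run but that on males alone, where WT NASH holds 1 library. In the GENCODE M21 annotation 42.9% of the exonic bases of Acadvl overlap Dvl2. How such a stretch was counted is not given in the sources used here. Its level, 4.97 ± 1.33 CPM per kb in WT chow (SD, n = 5), was the third lowest of the 38 genes. Acadm and Acads were not called, although every KO NASH library was above every WT NASH library in both (adjusted p = 0.0592 and 0.076).

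The other steps of the mitochondrial cycle are carried by Hadha and Hadhb, the subunits of the trifunctional protein, by Echs1 and Hadh, the short-chain hydratase and hydroxyacyl-CoA dehydrogenase, and by Acaa2, a thiolase. Hadha and Hadhb fell with the NASH diet in WT livers, and no gene of these 5 was called in a KO comparison. Hadha stood at 528, 407, 743, 463 and 771 CPM in WT chow and 418, 320.4, 365, 136 and 331 in WT NASH. Replicate 1 of WT NASH lay above replicate 2 of WT chow, so that the groups overlapped (log2 -0.89 ± 0.26, adjusted p = 0.044), and the call held in 7 of the 20 fits without 1 library (adjusted p up to 0.125). Hadhb stood at 138, 114, 347, 367 and 297 CPM in WT chow and 81.2, 77.4, 70.8, 124 and 93.0 in WT NASH (log2 -1.50 ± 0.36, adjusted p = 0.0171), and that call held in all but the fits without WT chow 3 or WT NASH 2. The 3 high Hadhb values of WT chow are those of the libraries with low length slope. Without the 6 libraries of low slope the log2 difference was -0.37 for Hadha (adjusted p = 0.286) and -0.63 for Hadhb (adjusted p = 0.0451). Neither passed with sex in the model (adjusted p = 0.142 and 0.0929).

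Of the 50-base stretches of Hadhb transcripts, 57.5% also occur in the pseudogenes Gm13910 and Gm9108, so its count is uncertain. Hadha (chr5:30118304-30155162, minus strand) and Hadhb (chr5:30155248-30184593, plus strand) lie head to head on GRCm38 with 85 bases between them. The Hadhb promoter window (chr5:30155003-30155302, plus strand) is shown because 228 of its bases, in capitals, are also the promoter window of Hadha:
Hadhb: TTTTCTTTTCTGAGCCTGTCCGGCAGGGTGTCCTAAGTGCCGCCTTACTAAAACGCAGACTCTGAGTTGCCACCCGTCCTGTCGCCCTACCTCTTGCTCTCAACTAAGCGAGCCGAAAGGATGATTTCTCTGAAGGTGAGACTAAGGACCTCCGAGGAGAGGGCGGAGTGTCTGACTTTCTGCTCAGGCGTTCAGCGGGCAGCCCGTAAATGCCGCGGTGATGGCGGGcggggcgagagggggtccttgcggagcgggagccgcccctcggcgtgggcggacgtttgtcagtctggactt
In KO livers on the NASH diet Hadha lay at 477 to 651 CPM, above the 136 to 418 of WT (log2 0.79 ± 0.26, adjusted p = 0.0559), while Hadhb, at 113 to 157 against 70.8 to 124, overlapped (0.50 ± 0.35, adjusted p = 0.399). Hadh, Echs1 and Acaa2 had adjusted p of 0.116 or more in each of the 4 comparisons. Echs1 was at 512 CPM in WT NASH 4, against 175 to 231 in the other WT NASH libraries.

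Auxiliary enzymes deal with double bonds: the isomerases Eci1 and Eci2, the dienoyl-CoA reductases Decr1 of mitochondria and Decr2 of peroxisomes, and Ech1, a dienoyl-CoA isomerase. Eci2, Decr1, Decr2 and Ech1 fell with the NASH diet in WT livers, Eci1 and Eci2 were higher in KO on the NASH diet, and Decr1 also fell with the diet in KO livers. Decr1 stood at 360.3, 289, 889.6, 619 and 887 CPM in WT chow and at 215, 215, 219, 213 and 224 in WT NASH, and at 601, 569.5, 433, 912 and 1182 in KO chow and at 320.2, 344, 370.3, 334 and 292 in KO NASH. Both NASH diet groups were tight, and each lay wholly below its chow group. The diet difference was -1.49 ± 0.30 in WT (adjusted p = 0.00638) and -1.15 ± 0.30 in KO (adjusted p = 0.0404), and both passed with sex in the model (adjusted p = 0.0468 and 0.0463). In chow livers of both genotypes the low-slope libraries held the highest Decr1 values. Without them the differences were -0.56 (adjusted p = 0.0648) and -0.69 (adjusted p = 0.0116). The WT call held in all 20 fits without 1 library, and the KO call in 9 (adjusted p up to 0.101).

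Eci2 stood at 295, 226, 524, 332 and 694 CPM in WT chow, 173, 127, 160.4, 104 and 172 in WT NASH, and 352, 334, 295, 275 and 346 in KO NASH. WT NASH lay below both other groups throughout (log2 -1.49 ± 0.30 against WT chow, adjusted p = 0.00622, and 1.12 ± 0.30 for KO NASH over WT NASH, adjusted p = 0.0234). Eci1, at 42.8 to 93.6 CPM in WT NASH and 121 to 179 in KO NASH, did not overlap either (log2 0.99 ± 0.27, adjusted p = 0.0261). With sex in the model these KO calls were lost (adjusted p = 0.0632 for Eci2 and 0.0718 for Eci1), and so was the WT diet call of Eci2 (0.0634). The KO call of Eci2 was also lost without WT NASH 2 or 4 or KO NASH 1 or 5, and that of Eci1 without WT NASH 4 or KO NASH 3 or 4. Decr2 lay at 277 to 628 CPM in WT chow and 182 to 242 in WT NASH (log2 -1.01 ± 0.24, adjusted p = 0.0166), and Ech1 at 305 to 1381 and 166 to 353 (-1.38 ± 0.40, adjusted p = 0.0445). Both were lost with sex in the model (adjusted p = 0.0635 for Decr2 and 0.0854 for Ech1) and without the low-slope libraries, where the differences were -0.31 (adjusted p = 0.245) and -0.04 (0.921). The Ech1 call held in 7 of the 20 fits that left out 1 library, with adjusted p up to 0.162, and that of Decr2 in all but those without WT chow 3 or 5.

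Electrons from the dehydrogenases pass to the electron transfer flavoprotein, made of Etfa and Etfb, and on to its quinone oxidoreductase Etfdh. Etfdh fell with the NASH diet in WT livers. It stood at 556, 406, 886, 542 and 1041 CPM in WT chow and 322, 307, 365, 243 and 299 in WT NASH, with no overlap (log2 -1.16 ± 0.25, adjusted p = 0.0104). The call held in all 20 fits without 1 library and with sex in the model (adjusted p = 0.046), and not without the low-slope libraries (-0.56, adjusted p = 0.081). Etfa and Etfb were not called in the 4 comparisons (adjusted p from 0.472 to 0.921), and 58.2% of the exonic bases of Etfb overlap other annotated genes, mainly Gm45233.

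Of the 8 genes of peroxisomal oxidation and transport, 3 rose in KO on chow (3.03% of all genes) and 4 were higher in KO on the NASH diet (4.9%). With the diet 2 fell (3.24%) and 1 rose (2.69%) in WT, and 1 fell in KO (1.52%). Ehhadh is the bifunctional hydratase and dehydrogenase, Hsd17b4 the other bifunctional enzyme, Acaa1a and Acaa1b the thiolases, and Acox2 an oxidase of branched chains and bile acid intermediates. Pex11a promotes division of peroxisomes, and Abcd2 and Abcd3 carry acyl-CoA into them. Ehhadh was higher in KO on both diets and lower on the NASH diet in both genotypes. It stood at 981, 756, 5149, 1953 and 1548 CPM in WT chow and at 444, 387, 391, 183 and 351 in WT NASH, and at 13638, 14680.3, 3399, 11184 and 13635 in KO chow and at 1799, 1844, 3734, 1818 and 1694 in KO NASH. On chow WT replicate 3 lay above KO replicate 3, a female, and the other values of the 2 groups were apart. On the NASH diet every KO library was above every WT library.

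Ehhadh differed between KO and WT by 2.44 ± 0.48 on chow (adjusted p = 0.00567) and 2.63 ± 0.48 on the NASH diet (adjusted p = 0.00216). Both KO calls held in every alternative run and without any 1 library. The diet differences of Ehhadh were -2.56 ± 0.48 in WT (adjusted p = 0.00379) and -2.38 ± 0.48 in KO (adjusted p = 0.0141). In WT the call was lost with sex in the model (-2.47, adjusted p = 0.0755) and without the low-slope libraries, where the difference was -1.13 (adjusted p = 0.148). Ehhadh had the highest mean level per length of the 38 genes in WT chow, 697 ± 597 CPM per kb (SD, n = 5), and Acaa2 followed at 520 ± 266, within that spread. The Ehhadh mean leans on WT chow 3, a low-slope library at 5149 CPM where the others lay at 756 to 1953. Ehhadh took up to 1.774% of all counts in KO chow, and scaling the libraries without it changed none of the 30 calls among these genes.

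**Figure D3:**
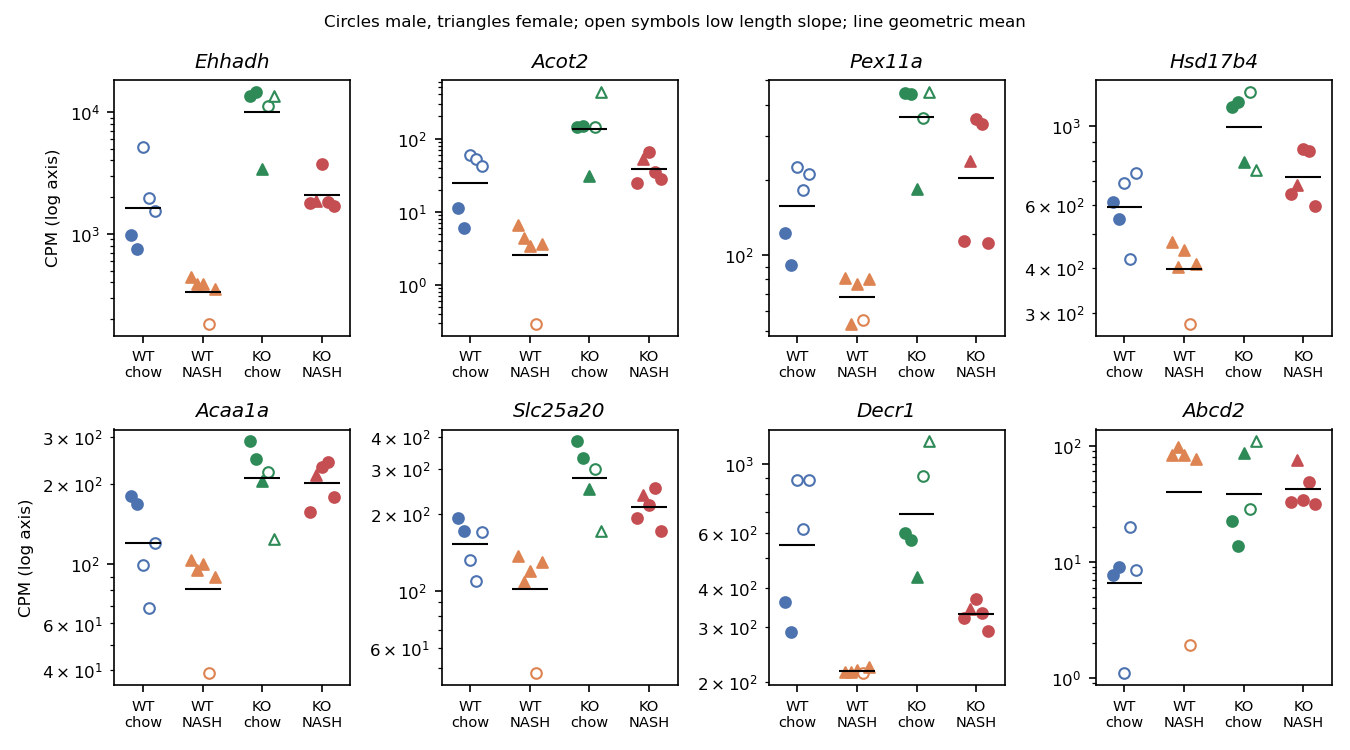
CPM on a log axis in each library for 8 of the genes, by group, with a line at the geometric mean of 5 libraries, circles for males and triangles for females as read, and open marks for libraries of low length slope. For Ehhadh, Acot2, Pex11a, Hsd17b4, Acaa1a and Slc25a20 the KO NASH points lie wholly above the WT NASH points.

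Pex11a stood at 122, 91.1, 225, 182 and 211 CPM in WT chow and at 80.9, 53.2, 76.8, 55.0 and 80.0 in WT NASH, and at 445, 439.6, 185, 352 and 451 in KO chow and at 114, 238, 350.3, 335 and 112 in KO NASH. WT NASH lay below both WT chow and KO NASH, and KO chow replicate 3 lay among the WT chow values. The log2 fold change was 1.17 ± 0.34 for KO on chow (adjusted p = 0.0493), 1.73 ± 0.35 for KO on the NASH diet (adjusted p = 0.00456) and -1.27 ± 0.34 for the diet in WT (adjusted p = 0.0352). The NASH diet KO call held in all 20 fits without 1 library and with sex in the model (adjusted p = 0.0209). The call on chow held in 4 of the 20 fits (adjusted p up to 0.117), and that for the WT diet in 13 (up to 0.0951). Those 2 calls were lost with sex in the model (adjusted p = 0.0629 and 0.218) and without the low-slope libraries (0.0634 and 0.525).

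Hsd17b4 stood at 614, 551, 694, 425 and 737 CPM in WT chow and at 475, 404, 451, 279 and 411 in WT NASH, and at 1131, 1168, 793, 1249 and 751 in KO chow and at 645, 683, 861, 853 and 597 in KO NASH. The genotypes did not overlap on either diet. KO was higher by 0.75 ± 0.22 on chow (adjusted p = 0.0446) and by 0.85 ± 0.22 on the NASH diet (adjusted p = 0.0191). The chow call held in 4 of the 20 fits without 1 library (adjusted p up to 0.113), and the NASH diet call in 19, all but that without KO NASH 3 (0.0516). With sex in the model the chow call held (adjusted p = 0.0435) and the NASH diet call did not (0.0982).

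Acaa1a stood at 104, 94.9, 99.9, 39.0 and 89.7 CPM in WT NASH and 157, 216, 233, 242 and 179 in KO NASH, with no overlap (log2 1.26 ± 0.29, adjusted p = 0.0113), and was called in every alternative run. On chow its values of 68.5 to 180.1 in WT and 125 to 289.8 in KO overlapped (0.78 ± 0.29, adjusted p = 0.13). Its neighbour Acaa1b, which shares 46.2% of its 50-base stretches with Acaa1a and other genes, was not called (adjusted p = 0.0669 for KO on the NASH diet), so reads may be divided between the pair. Abcd3 and Acox2 were not called. Acox2 had lower values in KO chow, 79.5 to 269.7 CPM, than in WT chow, 154 to 365, with overlap (log2 -0.67 ± 0.29, adjusted p = 0.209).

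Abcd2, a very long chain acyl-CoA transporter, was the 1 gene of the 38 that rose with the NASH diet in WT livers. It stood at 7.70, 8.99, 1.09, 19.9 and 8.45 CPM in WT chow and at 83.3, 96.5, 83.4, 1.91 and 76.3 in WT NASH, and at 22.6, 13.7, 85.9, 28.5 and 109 in KO chow and at 33.0, 75.8, 34.1, 48.6 and 31.5 in KO NASH. The 7 libraries read as female were the highest of their groups in each of the 3 groups that had any, and the lone male of WT NASH lay within the range of the WT chow males. The log2 difference for the WT diet was 2.89 ± 0.75 (adjusted p = 0.0272). With sex in the model it was 0.50 (adjusted p = 0.816), and among males alone it was -2.29 (adjusted p = 0.342). Diet and sex cannot be told apart for Abcd2 in the WT groups.

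The acyl-CoA thioesterases Acot1, Acot2, Acot3 and Acot4 lie in a cluster on chromosome 12 (chr12:83987861-84060402, GRCm38). Acot1 is cytosolic, Acot2 mitochondrial, and Acot3 and Acot4 are peroxisomal. Acot2 had the highest log2 fold change of the 38 genes in KO livers on the NASH diet, and Acot1 and Acot2 fell with that diet in WT livers. Acot2 stood at 11.3, 6.07, 59.1, 52.6 and 42.4 CPM in WT chow and at 6.59, 4.45, 3.45, 0.294 and 3.62 in WT NASH, and at 143, 149.6, 30.8, 144 and 437 in KO chow and at 25.1, 51.9, 64.8, 35.0 and 27.7 in KO NASH. On the NASH diet the genotypes were wholly apart. On chow the lowest KO library, replicate 3, lay within the WT range.

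KO livers were higher in Acot2 by 3.44 ± 0.70 on the NASH diet (adjusted p = 0.00486) and by 2.40 ± 0.66 on chow (adjusted p = 0.0375), and the NASH diet call held in every alternative run. The chow call was lost with sex in the model (1.97, adjusted p = 0.082) and held in 12 of the 20 fits without 1 library. The WT diet difference of Acot2 was -3.18 ± 0.69 (adjusted p = 0.0101), and -0.93 (adjusted p = 0.357) without the low-slope libraries, which held the 3 high WT chow values. Acot1 stood at 92.0, 61.5, 268, 149 and 179 CPM in WT chow and 48.7, 11.6, 13.7, 4.41 and 23.8 in WT NASH, with no overlap (-2.87 ± 0.61, adjusted p = 0.00864). Its call held with sex in the model (-3.59, adjusted p = 0.0326), and without the low-slope libraries the difference was -1.64 (adjusted p = 0.156).

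Acot1, Acot3 and Acot4 were not called in a KO comparison, with KO NASH replicates 1 and 5 low in each: 23.8 and 22.9 CPM for Acot1, against 72.8 to 118 in the other 3, and 18.5 and 12.5 for Acot3, against 85.2 to 142. The same 2 libraries were the most alike of any pair within a group, yet differed by more than sampling noise, with a chi-square per gene of 8.57 where noise alone gives about 1. Of the 50-base stretches of the 4 genes 14.0% to 32.7% also occur in another gene, so reads may be divided. The gene sharing the most was a family member for Acot1 and Acot2, and an overlapping annotated gene outside the family names for Acot3 and Acot4.

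Bdh1, the ketone body dehydrogenase, was not called and its values overlapped in each of the 4 comparisons (log2 from -0.24 to 0.28, each ± 0.35, adjusted p from 0.662 to 0.726). Vnn1, a pantetheinase that recycles the precursor of coenzyme A, lay at 102 to 131 CPM in 4 WT NASH libraries and 6.77 in WT NASH 4, all below the 168 to 444 of KO NASH (log2 1.65 ± 0.59, adjusted p = 0.0805). Vnn1 was called in that comparison once sex was a term. Ucp2, a carrier of the inner mitochondrial membrane that is also known from macrophages, was not called. It lay at 5.54 to 34.5 CPM in WT chow and 18.3 to 67.6 in KO chow (log2 1.49 ± 0.46, adjusted p = 0.0654). The summed level of 9 macrophage markers was 292 to 1129 CPM in WT chow and 452 to 1882 in KO chow. Of the 9, 1 was called higher, as were 3.03% of all genes, and the part of these cells in Ucp2 was not tested.

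Across the roles, the 13 genes called for the WT diet were auxiliary enzymes (4 of 5), peroxisomal genes (3 of 8), thioesterases (2 of 4), other enzymes of the mitochondrial cycle (2 of 5), a dehydrogenase (1 of 5) and a gene of electron transfer (1 of 3). Abcd2, 1 of these peroxisomal genes, was the only one of the 13 that rose. Of the 13, 3 were called again without the low-slope libraries and 4 with sex in the model. Those called for KO on the NASH diet were peroxisomal genes (4 of 8), auxiliary enzymes (2 of 5), dehydrogenases (2 of 5), carnitine entry (1 of 5) and thioesterases (1 of 4). Over all genes 5.93% were called for the WT diet and 9.65% for KO on the NASH diet. Ehhadh, Acot2, Pex11a and Hsd17b4 were called in both KO comparisons, which is 4 of 5 on chow and 4 of 10 on the NASH diet. The like overlap over all genes was not counted, so it is not known whether these shares are unusual. In total 19 genes were called in at least 1 comparison and 19 in none. Of the 10 called for KO on the NASH diet, none overlapped between the groups. A further 10 of the 38 were wholly apart there without a call, and over all genes 7.67% were wholly higher in KO. For the WT diet 11 of the 38 were wholly lower, against 3.25% of all genes.

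**Figure D4:**
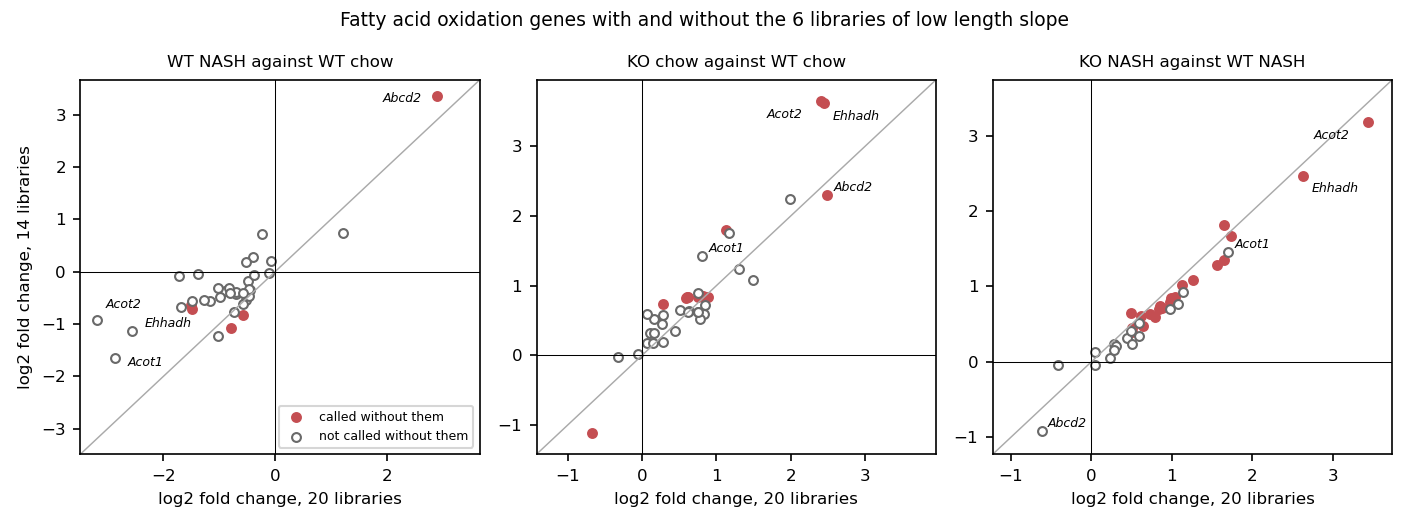
Log2 fold change of each of the 38 genes over all 20 libraries (horizontal) and over the 14 left without those of low length slope (vertical) in 3 comparisons (panels), with filled points for an edgeR adjusted p under 0.05 in the latter and a line where both are equal. For the WT diet Ehhadh and Acot2 move from -2.56 and -3.18 to -1.13 and -0.93, while for KO against WT on the NASH diet they stay near the line. Among the 14 libraries WT NASH is all female.

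Levels also differed within groups between libraries of low length slope and the rest. In WT chow the 3 low-slope libraries were all above the other 2 for 16 of the 38 genes (28.3% of all genes), among them Hadhb, Decr1, Ech1, Ehhadh and Acot2, and all below for 5 (30.5% of all genes), among them Cpt1a and Slc25a20. In KO chow the 2 low-slope libraries were above the other 3 for 14 genes (26.5% of all genes) and below for 2 (28.3%). The 38 genes together took from 0.3703% of the counts in WT NASH 4 to 4.274% in KO chow 2.

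The other genes of the pathway were 51 genes listed alongside, of which 48 were tested. For these and the further genes below, values come from the fit on all 20 libraries. Whether their calls hold with sex in the model or without the low-slope libraries was not tested. On the NASH diet in WT livers 9 of the 48 fell and none rose, where 5.93% of all genes tested were called. In KO livers on chow 7 rose and 1 fell (5.53% of all genes). On the NASH diet 6 were higher in KO and none lower (9.65% of all genes), and for the diet in KO livers 2 fell (3.29%). These last counts, for KO on the NASH diet and for the diet in KO, were little above the share of all genes. The median log2 fold changes of the 48 were -0.40, 0.15, 0.14 and -0.42 in that order, against 0.01, 0.00, 0.00 and -0.02 over all genes.

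Slc22a5, the plasma membrane carnitine carrier, averaged 82.0 ± 29.4 CPM in WT chow and 26.4 ± 8.03 in WT NASH, and in KO livers 222 ± 120 on chow and 106 ± 39.0 on the NASH diet (SD, n = 5). It was higher in KO by 1.44 ± 0.35 on chow (adjusted p = 0.0215) and 2.00 ± 0.36 on the NASH diet (adjusted p = 0.00184). Acad12, a dehydrogenase family member, was also higher in KO on both diets (1.11 ± 0.24 and 1.50 ± 0.24, adjusted p = 0.00898 and 0.000687). In WT livers on the NASH diet Hsd17b10, a mitochondrial hydroxyacyl-CoA dehydrogenase, fell from 582 ± 316 to 121 ± 82.2 CPM (-2.27 ± 0.46, adjusted p = 0.00664), and Slc27a2, an acyl-CoA synthetase of very long chains, from 2499 ± 433 to 1182 ± 251 (-1.08 ± 0.24, adjusted p = 0.0125). The Hsd17b10 groups overlapped, at 242 to 975 CPM in WT chow and 73.9 to 267 in WT NASH. Acadsb, the short and branched chain dehydrogenase, fell in KO on chow (-0.83 ± 0.20, adjusted p = 0.017). Hacl1, a lyase of peroxisomal alpha oxidation, averaged 673 ± 371 CPM in KO chow and 209 ± 27.6 in KO NASH (-1.69 ± 0.32, adjusted p = 0.0101).

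Of 21 regulators and PPAR alpha targets outside the set, 7 fell with the diet in WT, 4 rose in KO on chow, 7 were higher in KO on the NASH diet and 3 fell with the diet in KO. Over all genes 5.93%, 5.53%, 9.65% and 3.29% were called in these comparisons. The medians of the 21 were -0.85, 0.34, 1.80 and -0.58, against 0.01, 0.00, 0.00 and -0.02 over all genes. The fatty acid omega-hydroxylase gene Cyp4a31 averaged 107 ± 25.5 CPM in WT chow and 11.3 ± 7.18 in WT NASH, and in KO livers 434 ± 161 on chow and 290 ± 147 on the NASH diet, and was higher in KO on the NASH diet by 4.67 ± 0.56 (adjusted p = 5.68e-05). Cyp4a32 was higher there by 2.29 ± 0.30 (adjusted p = 0.000143) and fell with the diet in WT by 2.69 on the log2 scale (adjusted p = 4.78e-05). The Cyp4a genes are close copies, so their reads may be divided. Aqp3, a glycerol channel, stood at 0.111 ± 0.158 CPM in WT chow and 4.81 ± 2.94 in KO chow (adjusted p = 0.000788), a few counts per library in WT. Cd36, a fatty acid translocase, averaged 151 ± 105 CPM in WT chow and 1383 ± 910 in KO chow (3.20 ± 0.48, adjusted p = 0.000811). Pdk4, which restrains pyruvate oxidation, averaged 13.1 ± 4.99 and 177 ± 187 in the same groups (3.76 ± 0.70, adjusted p = 0.004).

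Ppara itself averaged 295 ± 115, 311 ± 93.1, 373 ± 172 and 412 ± 118 CPM in WT chow, WT NASH, KO chow and KO NASH and was not called (adjusted p from 0.494 to 0.92). Fgf21, a hormone made by liver, was higher in KO on the NASH diet, at 11.8 ± 7.06 against 3.24 ± 1.93 CPM (1.82 ± 0.55, adjusted p = 0.0423). Of 10 genes of PPAR gamma and adipocytes 4 passed the filter. Pparg was not called (adjusted p from 0.0769 to 0.31). Cidec, a lipid droplet protein, averaged 0.886 ± 0.434 CPM in WT NASH and 115 ± 25.5 in KO NASH (6.99 ± 0.57, adjusted p = 4.73e-07) and was called for the interaction (4.18 ± 0.66, adjusted p = 0.0111). The 6 adipose tissue markers, Adipoq and Lep among them, all failed the filter and summed to at most 2.61 CPM in each group but KO NASH, where the highest library held 52.8 and the median was 1.02.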

How the data were processed

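Total RNA of 20 livers was sequenced, and the deposited table holds raw counts per gene symbol as the authors made them. Reads were aligned with HISAT2 2.0.4 to GRCm38, per the submitters' processing notes, while the counter, the annotation and strand handling remain not given in the sources used here, so overlapping and near-identical genes are uncertain. The table's headers write CD and HFD where the labels write chow and NASH diet, and columns were matched on that reading by diet, genotype and mouse number. In R 4.3.3, edgeR 4.0.16 was applied to the raw values: filterByExpr (minimum count 10) kept 14440 genes with 99.91% of the counts, libraries were scaled by TMM, and 1 model with a coefficient per group was fitted to all 20 libraries, with a common biological coefficient of variation of 39%. Genes were tested by the quasi-likelihood F test with Benjamini-Hochberg adjustment at 0.05, and each SE is the absolute log2 fold change divided by the square root of F. Depth was 9958935 to 20601955 counts per library, and after TMM scaling 1 CPM stood for 6.8 reads in WT NASH 4, the lowest, and up to 24.9 in KO chow 2. Counting error is only part of the spread between libraries.

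A library was read as male where 4 Y-linked genes summed to 100 counts or more. Length slopes used 9499 genes whose mean log2 CPM was 2 or higher, with lengths from GENCODE M21, found for 93.33% of the tested genes, and a slope under -0.2 was called low. Alternatives were RLE scaling, no low-count filter, DESeq2 1.42.0, a replicate block, sex and slope as terms, males alone, and fits without low-slope libraries, without any 1 library, or with KO NASH 1 and 5 summed. Males without low slope, and scaling without Ehhadh, were added after seeing the data. The procedure was also run on simulated counts. These held no differences of sex or length slope between libraries, so that run says nothing of how those affect the calls. Named genes are Pck1, the 38 genes, up to 4 called genes of smallest adjusted p per further list and comparison, and Ppara, Pparg and Fgf21; some genes under this rule are not reported here. Alb, Arntl, Adipoq and Lep are named as markers. The genes and lists were chosen with earlier results of these data known.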

Additional observations from a re-analysis of the deposited data

Results flagged for a closer look

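In 22 of the 152 gene and group combinations, 1 library stood apart from the other 4 by Dixon's criterion, where chance gives about 1 in 20. Of these, 10 were in WT NASH 4, the only male of its group and its only library of low length slope. It was the lowest of its group for Cpt1a (245 CPM), Cpt2 (101), Acadm (165), Eci1 (42.8), Abcd2 (1.91), Acaa1a (39.0), Acot4 (6.77), Bdh1 (192) and Vnn1 (6.77), and the highest for Echs1 (512). KO chow 4, also of low slope, was the highest of its group for Acaa2 (1303), Eci1 (356), Etfa (558) and Etfb (520.4). WT chow 4 was the lowest for Acadl (185), and KO chow 5 the highest for Acot4 (243). KO chow 3 was the lowest for Hadha (652). Ehhadh was high in WT chow 3 (5149) and KO NASH 3 (3734). The others were Hadhb in KO NASH 3 (157, highest), Acox2 in KO NASH 4 (259, highest) and Ucp2 in KO NASH 2 (79.9, highest), the female of that group.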

How the results depend on the processing

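Over the 30 calls among the 38 genes, direction was kept in all alternatives but 1: among males alone Abcd2 for the WT diet was -2.29. RLE scaling kept 29 of the 30 calls, DESeq2 30, no low-count filter 22, slope as a term 29, sex as a term 13, both terms 21, males alone 10, and leaving out the low-slope libraries 19. With KO NASH 1 and 5 summed, 25 were kept. Libraries of the same replicate number showed no steady likeness (13 of 30 same-number correlations over 0.1, from -0.405 to 0.518, and 6 of 20 libraries matched their own number best). Correlations between different numbers were not set beside these, so pairing was neither shown nor excluded. The replicate block kept 24. Fits without 1 library kept 482 of 600. WT NASH held 1 male, so fits on males alone assume that it varies like the other groups. Fits without the low-slope libraries leave WT NASH all female.

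For the WT diet, genes called were 1496 with DESeq2, 161 with sex, 1775 with slope and 95 in males, against 857, and of the 38 genes 4 with sex, 6 with sex and slope, 2 in males and 5 without low-slope libraries, against 13. For KO on chow, genes called were 1389 with DESeq2, 1652 with slope, 1991 with both terms and 1616 in males without low slope, against 798. Of the 38 genes 3 were called without the filter (7.89%, against 2.59% of all genes), 10 with DESeq2 (26.3%, against 9.63%) and 3 with the replicate block (7.89%, against 6.11%). With sex it was 2 (5.26%, against 5.84%), with slope 10 (26.3%, against 11.4%) and with both 9 (23.7%, against 13.8%). Without low-slope libraries it was 12 (31.6%, against 5.33%), and in males without low slope 12 (31.6%, against 10.9%). The main fit called 5 (13.2%, against 5.53%). For KO on the NASH diet, genes called were 2196 with DESeq2, 625 with sex, 2388 with slope, 3102 without low-slope libraries and 764 with KO NASH 1 and 5 summed, against 1393, and of the 38 genes 19 with DESeq2, 6 with sex, 23 with slope, 20 with both, 18 in males and 21 without low-slope libraries, against 10.

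For the diet in KO, genes called were 253 without the filter, 1303 with DESeq2, 920 with slope, 1353 with both terms, 59 in males, 1174 without low-slope libraries, 180 with the summed sample and 1402 in males without low slope, against 475. Of the 38 genes the numbers were 1, 12, 7, 8, 0, 12, 1 and 13 in the same order, against 2. For the interaction, genes called were 189 with DESeq2, 4 with the replicate block, 4 with sex, 190 with slope, 69 with both, 5 in males, 79 without low-slope libraries and 4 with the summed sample, against 20. Without any 1 library, genes called ranged from 414 to 1712, 347 to 1219, 714 to 1727, 147 to 792 and 4 to 144 over the 5 comparisons, and of the 38 genes from 6 to 15, 1 to 10, 7 to 13, 1 to 10 and 0 to 1. The cause of these changes was not tested, beyond the fewer libraries that some fits hold. Males without low slope left no WT NASH library, so that fit gave no WT diet, NASH diet or interaction value.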
